A study of Mus musculus with 6 samples.

Results

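The laminin chain genes were followed in lungs of Col6a1-/- mice and of wildtype mice. They were chosen by name, as the rows for laminin alpha, beta and gamma chains in the deposited table of normalized counts, and comprised 9 of its 49568 rows: the alpha chain genes Lama1, Lama2, Lama3, Lama4 and Lama5, the beta chain genes Lamb1, Lamb2 and Lamb3, and the gamma chain gene Lamc1. Lamc3, for the gamma 3 chain, is described beside the 9. All 9 genes, and Lamc3, passed the filter on low values. The mice were Col6a1-/- or wildtype, of strain C57BL/6 and 6 weeks old, and no other allele or treatment is named in the labels. RNA was taken from the right lobes after the lung vessels had been perfused. Each library was a pool of 2 animals of 1 genotype, and there were 3 libraries per genotype. Neither the making of the Col6a1 allele nor the sex of the mice is given in the labels.

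A laminin is a cross-shaped heterotrimer of 1 alpha, 1 beta and 1 gamma chain, held together by a coiled coil, and is named by the numbers of its chains. Beta and gamma chains pair inside the cell, and the alpha chain joins them before the trimer is secreted into the basement membrane, where its alpha chain binds integrins and dystroglycan. In the lung, laminins with the alpha 3 and alpha 5 chains lie under epithelium, those with alpha 4 and alpha 5 under endothelium, and those with alpha 2 around muscle and other mesenchymal cells. The alpha 1 chain is known mainly from embryonic basement membranes.

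The libraries held 28055414 to 37904878 reads assigned to genes. The targeted gene Col6a1 had 10034, 10616 and 9343.8 normalized counts in Col6a1-/- replicates 1, 2 and 3, against 19907, 18393 and 22331 in wildtype replicates 1, 2 and 3, or 49.5% of wildtype (log2 fold change -1.01, limma adjusted p 0.00643), so reads of the targeted gene remained in the Col6a1-/- libraries. The pools differed in sex. Taking the level of 4 Y-linked genes relative to the library with the lowest Xist, the male share was 72.5%, 100% and 51.1% in Col6a1-/- replicates 1, 2 and 3, against 0.347%, 3.35% and 51.5% in wildtype replicates 1, 2 and 3. Xist had 12025, 28.4 and 10487 normalized counts in Col6a1-/- replicates 1, 2 and 3, against 16212, 16430 and 13592 in wildtype replicates 1, 2 and 3. The male share is an estimate from RNA and no count of the 2 animals in a pool. Fold changes over all genes also followed transcript length and GC content, with a Spearman's rho of -0.354 for length and -0.350 for GC in the 12730 genes that averaged 100 or more normalized counts (a correlation across genes, which are not independent replicates). Laminin transcripts are long: the median of the 9 was 7622 bases, against 3464 bases in those 12730 genes. Results are therefore given with the male share as a covariate, in the pools of mixed sex alone, and with the trend on length and GC removed.

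Of the 9 laminin chain genes, all had lower estimates in Col6a1-/- lungs, where 48.3% of the 16879 genes tested had one. The median log2 fold change of the 9 was -0.32, against 0.0098 over all genes tested, and the estimates ran from -1.22 for Lama1 to -0.07 for Lamb2. In 7 of the 9, all except Lamb2 and Lamb3, every Col6a1-/- library lay below every wildtype library, as it did for 14.2% of all genes. An unadjusted limma p under 0.05 with a lower estimate was found for 8 of the 9, against 10.6% of all genes. After Benjamini-Hochberg adjustment over all genes none of the 9 passed the limma threshold of 0.05, which 0.0652% of all genes passed, 0.0474% in the lower direction. edgeR's quasi-likelihood test on the reads recovered from the normalized counts passed none of the 9 either, against 0.0592% of all genes in the lower direction. In the authors' deposited table, which has the columns of DESeq2, 4 of the 9 had an adjusted p under 0.05 and a lower level, against 3.18% of the genes with an adjusted p there. These were Lama1 (adjusted p 0.000726), Lama3 (0.0110), Lamb1 (0.0188) and Lamc1 (0.0252). In bulk lung, fewer cells that make a chain and less RNA per cell cannot be told apart.

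**Figure D1:**
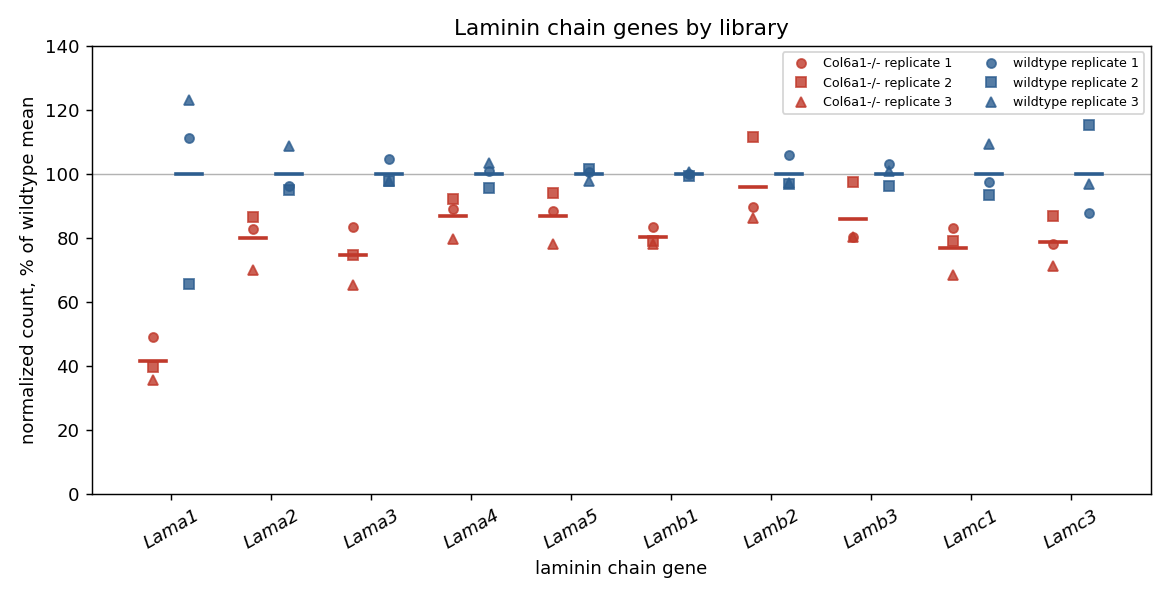
Normalized count of each laminin chain gene in each library, as a percentage of the wildtype mean of that gene; symbols are libraries, short bars are means of 3 libraries, and Col6a1-/- stands left of wildtype. Lama1 averaged 41.4% of wildtype, and Lamb2 at 95.8% and Lamb3 at 86.0% overlapped between genotypes.

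Among the alpha chains, Lama1 (ENSMUSG00000032796.8, chromosome 17, 67697259 to 67822647, plus strand, GRCm38) had both the lowest level and the largest fold change. Lama1 had 70.6, 56.9 and 51.0 normalized counts in Col6a1-/- replicates 1, 2 and 3, against 159.9, 94.4 and 177 in wildtype replicates 1, 2 and 3. All 3 Col6a1-/- libraries lay below the wildtype ones, and wildtype replicate 2 lay closest to them. The means were 59.5 ± 10.1 in Col6a1-/- lungs and 143.8 ± 43.7 in wildtype lungs (SD, n = 3 pools each), giving a log2 fold change of -1.22 (SE 0.25, limma adjusted p 0.0815). These values rested on 88, 52 and 51 reads in the Col6a1-/- libraries, against 154, 86 and 183 reads in the wildtype libraries. The authors' deposited table gave a log2 fold change of -0.78 for Lama1, and DESeq2 on the recovered reads gave -1.27. The unadjusted p was 3.24e-06 in both, and why the deposited estimate is smaller is not known here.

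Lama3 (ENSMUSG00000024421.16, chromosome 18, 12333819 to 12583013, plus strand) encodes the alpha 3 chain of epithelial anchoring sites. It had 6720.1, 6030.1 and 5271.2 normalized counts in Col6a1-/- replicates 1, 2 and 3, against 8437.9, 7877.6 and 7875 in wildtype replicates 1, 2 and 3. The groups did not overlap, and the lowest level was in Col6a1-/- replicate 3. Its mean stood at 74.5% of wildtype, with a log2 fold change of -0.43 and an SE of 0.10 (limma adjusted p 0.0942).

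Lama2 (ENSMUSG00000019899.16, chromosome 10, 26980036 to 27619758, minus strand), whose alpha 2 chain is the laminin of muscle and peripheral nerve, had 3539.8, 3694.6 and 2994 normalized counts in Col6a1-/- replicates 1, 2 and 3, against 4105.2, 4060.7 and 4647.2 in wildtype replicates 1, 2 and 3. It stood at 79.8% of wildtype, without overlap (log2 fold change -0.33, SE 0.10, limma adjusted p 0.135). Lama4 and Lama5, the alpha chains of vessel walls, lay nearer to wildtype. Lama4 (ENSMUSG00000019846.11, chromosome 10, 38965515 to 39110188, plus strand) had 5367.9, 5557.7 and 4799.4 normalized counts in Col6a1-/- replicates 1, 2 and 3, against 6085.7, 5762.2 and 6230.1 in wildtype replicates 1, 2 and 3. Lama5 (ENSMUSG00000015647.9, chromosome 2, 180176373 to 180225859, minus strand), also the main alpha chain under adult epithelium, had 8533.7, 9051.1 and 7525.5 normalized counts in Col6a1-/- replicates 1, 2 and 3, against 9709, 9791 and 9411.4 in wildtype replicates 1, 2 and 3. Neither overlapped between genotypes, at 87.0% and 86.9% of wildtype, with log2 fold changes of -0.20 and -0.21 (SE 0.09 for each, limma adjusted p 0.232 and 0.243).

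The beta chains differed from each other. Lamb1 and Lamb2 encode chains that take the same place in trimers with gamma 1, while Lamb3 encodes a beta chain of epithelial anchoring sites. Lamb1 (ENSMUSG00000002900.16, chromosome 12, 31265234 to 31329644, plus strand) had 7647, 7231.7 and 7150.6 normalized counts in Col6a1-/- replicates 1, 2 and 3, against 9170, 9109.3 and 9214.9 in wildtype replicates 1, 2 and 3. Its libraries were close together within each genotype and did not overlap, at 80.1% of wildtype (log2 fold change -0.32, SE 0.08, limma adjusted p 0.101). Lamb2 (ENSMUSG00000052911.9, chromosome 9, 108479736 to 108490530, plus strand) had 8914.9, 11099 and 8569.1 normalized counts in Col6a1-/- replicates 1, 2 and 3, against 10530, 9640.7 and 9651.6 in wildtype replicates 1, 2 and 3. Col6a1-/- replicate 2, the all-male pool, had the highest level of the 6 libraries, so the groups overlapped (95.8% of wildtype, log2 fold change -0.07, SE 0.11, limma adjusted p 0.746). Lamb3 (ENSMUSG00000026639.18, chromosome 1, 193207699 to 193343878, plus strand) had 4055.8, 4923.6 and 4050.6 normalized counts in Col6a1-/- replicates 1, 2 and 3, against 5206, 4854.4 and 5092.5 in wildtype replicates 1, 2 and 3. Col6a1-/- replicate 2 again stood above the other two, and above wildtype replicate 2 (86.0% of wildtype, log2 fold change -0.22, SE 0.10, limma adjusted p 0.233).

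The stretches before the RefSeq start sites of Lamb1 and Lamb2 are shown because these genes, for chains of the same trimer position, stood at different percentages of wildtype. Each is the 250 bases before the RefSeq start (GRCm38.p6), 5′ to 3′, at chr12:31265043-31265292 and chr9:108479612-108479861, both on the plus strand, and capitals mark the GC box GGGCGG or its reverse complement CCGCCC.
Lamb1: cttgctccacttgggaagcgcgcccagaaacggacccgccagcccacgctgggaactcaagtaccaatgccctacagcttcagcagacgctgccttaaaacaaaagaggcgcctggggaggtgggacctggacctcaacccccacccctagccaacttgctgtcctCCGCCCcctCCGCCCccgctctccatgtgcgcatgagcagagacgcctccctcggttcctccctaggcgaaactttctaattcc
Lamb2: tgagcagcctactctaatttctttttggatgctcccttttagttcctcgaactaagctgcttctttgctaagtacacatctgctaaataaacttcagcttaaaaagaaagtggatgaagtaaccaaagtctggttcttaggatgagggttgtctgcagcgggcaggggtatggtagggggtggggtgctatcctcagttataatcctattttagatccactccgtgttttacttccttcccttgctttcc
The Lamb1 window held 2 matches to the GC box and 14 CpG dinucleotides at 62% GC, and the Lamb2 window held no match and 3 CpG dinucleotides at 43.6% GC. Over 32851 such windows in the RefSeq table, 32.7% held the GC box on either strand, and the medians were 6 CpG dinucleotides and 52.4% GC. The letters TATAAA, searched on both strands, were in neither window, against 12.4% of all windows. The table had windows for 3 further chain genes. The Lama5 window held 4 GC boxes, while that of Lama2 and both windows of Lamb3 held none. The RefSeq starts differ from the gene positions given above. The windows of Lamb1 and Lamb2 end inside those genes, past their starts at 31265234 and 108479736, and the windows of Lama2 and Lamb3 lie wholly inside theirs. Windows before the starts of those gene positions were not examined, except for Lama5, where the 2 starts match. These matches are descriptions of sequence and were not tested against the fold changes.

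Lamc1 (ENSMUSG00000026478.14, chromosome 1, 153218922 to 153332786, minus strand) encodes gamma 1, the chain shared by most laminin trimers. It had 12306, 11687 and 10139 normalized counts in Col6a1-/- replicates 1, 2 and 3, against 14409, 13820 and 16169 in wildtype replicates 1, 2 and 3. The groups did not overlap, with the extremes in Col6a1-/- replicate 3 and wildtype replicate 3, and the mean stood at 76.9% of wildtype (log2 fold change -0.38, SE 0.10, limma adjusted p 0.113). Lamc3 had a lower level than Lamc1, at 786 ± 78.9 normalized counts in Col6a1-/- lungs and 999 ± 141 in wildtype lungs (SD, n = 3 each; log2 fold change -0.34, limma adjusted p 0.172).

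To compare chains with each other, normalized counts were divided by the merged exon length of each gene. In Col6a1-/- lungs Lamb2 was highest, at 1567 ± 226 normalized counts per kilobase, followed by Lamc1 at 1375 ± 135 (SD, n = 3), and their libraries overlapped. In wildtype lungs Lamc1 was highest at 1789 ± 148, with Lamb2 next at 1634 ± 84.0, again with overlap. Below them in wildtype came Lamb1 at 924 ± 5.34, without overlap. Lama5 followed at 846 ± 17.5. Lamb3 at 764 ± 27.1 and Lama3 at 750 ± 30.2 overlapped. The low end held Lama4 at 499 ± 19.9, Lama2 at 261 ± 19.98, Lamc3 at 164 ± 23.2 and Lama1 at 14.9 ± 4.51, each pair of neighbours without overlap. In Col6a1-/- lungs the order from Lamb1 down was Lamb1 at 740 ± 26.8, Lama5 at 735 ± 68.1, Lamb3 at 657 ± 76.0, Lama3 at 559 ± 67.4, Lama4 at 434 ± 32.7, Lama2 at 209 ± 22.5, Lamc3 at 129 ± 12.96 and Lama1 at 6.14 ± 1.04. Neighbours in that order overlapped from Lamb1 down to Lama3 and not below it. Levels depend on the length used: merged exons join the exons of all annotated transcripts, and Lama4 in wildtype lungs stood at 997 ± 39.6 per kilobase of its longest transcript of 6046 bases, against 499 per kilobase of its 12068 merged exon bases. Lama1 was the lowest chain by merged exon, longest transcript and coding length.

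**Figure D2:**
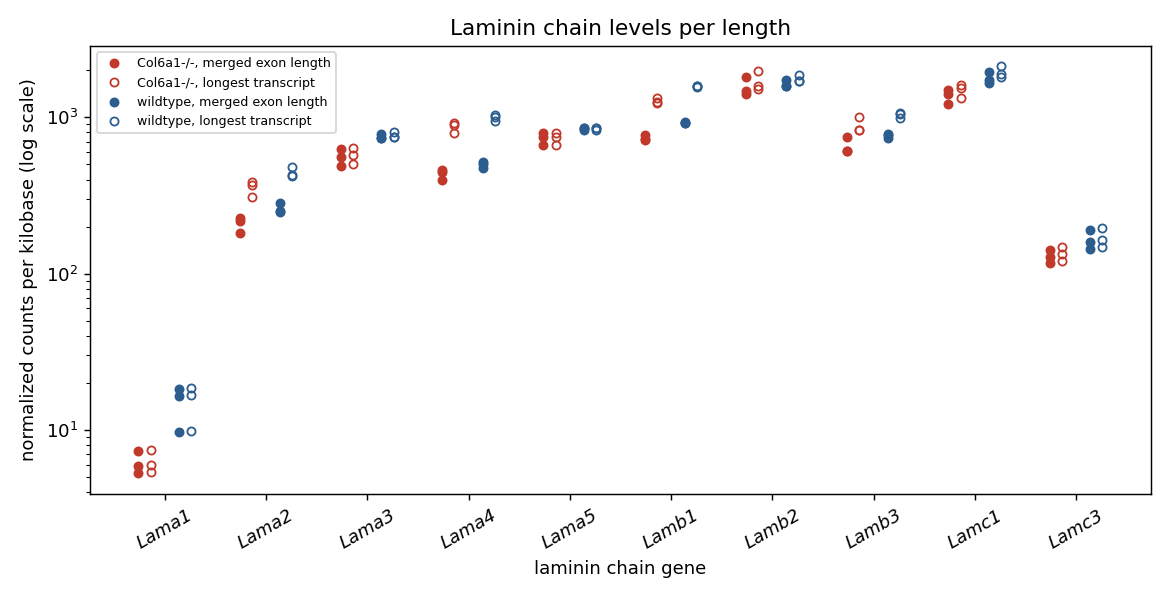
Normalized counts per kilobase of each laminin chain gene, on a log scale, in each library; filled points use the merged exon length and open points the longest transcript, with Col6a1-/- left of wildtype. Lama1 lay at 5.27 to 18.3 per kilobase of merged exon, far below the other alpha chain genes, and Lama4 and Lamb1 moved most with the choice of length.

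The summed alpha level was 1943 ± 178 normalized counts per kilobase in Col6a1-/- lungs and 2372 ± 41.0 in wildtype lungs (SD, n = 3 each), or 81.9% of wildtype. By merged exon length, Lama5 made up 37.8% ± 1.08 of the summed alpha level in Col6a1-/- lungs and 35.7% ± 1.12 in wildtype lungs, and Lama3 made up 28.7% ± 1.66 and 31.6% ± 0.89 (SD, n = 3 each). Lama4 made up 22.4% ± 0.57 in Col6a1-/- lungs and 21.05% ± 0.61 in wildtype lungs, Lama2 10.7% ± 0.27 and 11.0% ± 0.82, and Lama1 0.316% ± 0.037 and 0.625% ± 0.183. The shares of Lama1, Lama3 and Lama4 did not overlap between genotypes, each with an exact permutation p of 0.1, two-sided, which is the smallest that 3 libraries against 3 can give (adjusted p 0.167 over the 5 shares). Lama5 and Lama2 overlapped (exact permutation p 0.2 and 0.8, adjusted 0.25 and 0.8). After the trend on length and GC was removed, the difference in the Lama4 share was 0.446 percentage points, against 1.33 as deposited, with an exact permutation p of 0.4, and that in the Lama5 share was 2.71 points, against 2.15, with an exact permutation p of 0.1. By longest transcript the Lama3 share differed by -2.46 points with an exact permutation p of 0.2. Which alpha chain was highest also depended on the length. By longest transcript and by coding length it was Lama4 in every library. In wildtype lungs Lama4 stood at 997 per kilobase of longest transcript, against 846 for Lama5 and 764 for Lama3.

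By merged exon length, Lamb2 took 65.5%, 71.4% and 66.1% of the summed Lamb1 and Lamb2 level in Col6a1-/- replicates 1, 2 and 3, against 65.2%, 63.3% and 63.1% in wildtype replicates 1, 2 and 3. The groups did not overlap, by a margin of 65.5% in Col6a1-/- replicate 1 against 65.2% in wildtype replicate 1, and the exact permutation p was 0.1, two-sided, the smallest possible. The mean difference was 3.85 percentage points, and 1.98 points without Col6a1-/- replicate 2, the all-male pool. Among the mixed-sex pools the share was 65.5% and 66.1% in Col6a1-/- replicates 1 and 3 against 63.1% in wildtype replicate 3. The size of the share depended on the length used. Per kilobase of longest transcript, Lamb2 stood at 1693 and Lamb1 at 1270 in Col6a1-/- lungs, against 1766 and 1584.5 in wildtype lungs. By that length the shares differed by 4.27 percentage points (exact permutation p 0.1).

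**Figure D3:**
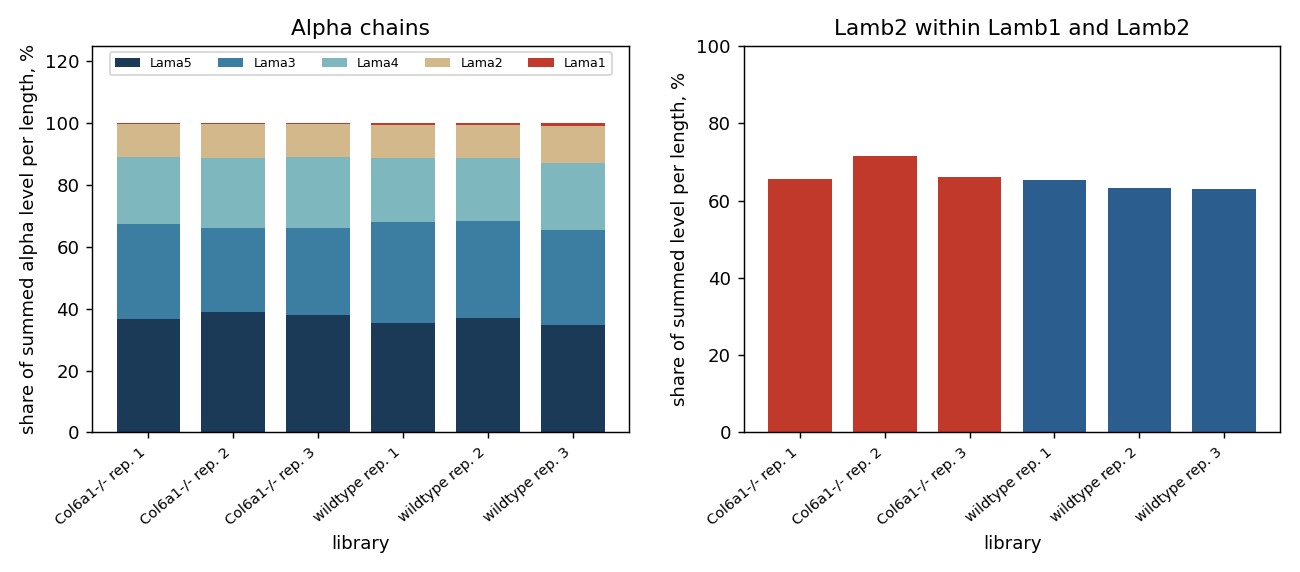
Left, share of each alpha chain gene in the summed alpha level per merged exon length in each library. Right, share of Lamb2 in the summed Lamb1 and Lamb2 level, also per merged exon length. Col6a1-/- libraries stand left of wildtype. By merged exon length Lama5 and Lama3 held the largest alpha shares in every library, while by longest transcript Lama4 had the highest alpha level in every library. The Lamb2 share was highest, at 71.4%, in Col6a1-/- replicate 2.

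Set against the shared gamma 1 chain, Lama1 was the chain that departed most. The log2 ratio of Lama1 to Lamc1 normalized counts was -7.45, -7.68 and -7.64 in Col6a1-/- replicates 1, 2 and 3, against -6.49, -7.19 and -6.51 in wildtype replicates 1, 2 and 3. That is a difference of -0.86 without overlap (exact permutation p 0.1, adjusted p 0.32 over the 8 ratios). The ratio of Lama4 to Lamc1 was 0.18 higher on the log2 scale in Col6a1-/- lungs, also without overlap (exact permutation p 0.1, adjusted p 0.32). After removal of the trend on length and GC this difference was 0.12 (exact permutation p 0.3), while that of Lama1 was -0.83 (exact permutation p 0.1). The ratios of the other 6 genes to Lamc1 differed by -0.05 to 0.31 with overlapping libraries, the largest being that of Lamb2 (exact permutation p 0.2, adjusted p 0.32). The log2 ratio of the summed alpha level to Lamc1 was 0.50 ± 0.04 in Col6a1-/- lungs and 0.41 ± 0.11 in wildtype lungs, and that of summed Lamb1 and Lamb2 to Lamc1 was 0.75 ± 0.14 in Col6a1-/- lungs and 0.52 ± 0.13 in wildtype lungs (exact permutation p 0.3 and 0.2, adjusted 0.3 for each). Without wildtype replicate 3 these differences came to 0.025 and 0.15, against 0.089 and 0.23 with all libraries.

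Which trimers the RNA levels leave room for was read from the scarcest of the 3 chains, per merged exon length. This is a bound on RNA alone and says nothing of protein or assembly, and chains are shared between trimers. The levels are those of bulk lung, so chains made in different cells are counted as if available to each other. All 10 trimers examined hold gamma 1, whose gene Lamc1 had the highest mean level per kilobase in wildtype lungs. Trimers with Lamb3 or with gamma 3 were not among them. Lamc3, at 164 per kilobase of merged exon in wildtype lungs, lay below every alpha chain gene except Lama1, so the reading does not extend to gamma 3. In wildtype libraries the alpha chain was the scarcest in all 10 trimers, by each of the 3 length measures. In Col6a1-/- libraries it was so too, except for α5β1γ1 in replicate 2, where Lamb1 at 729 lay below Lama5 at 795. That exception held by merged exon length only.

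The bound for α5β1γ1 and α5β2γ1, the alpha 5 trimers of adult basement membranes, was 713 ± 46.4 and 735 ± 68.1 normalized counts per kilobase in Col6a1-/- lungs and 846 ± 17.5 for each in wildtype lungs (SD, n = 3 each). For the alpha 3 trimers α3β1γ1 and α3β2γ1, found under epithelium, it was 559 ± 67.4 in Col6a1-/- lungs and 750 ± 30.2 in wildtype lungs. The alpha 4 trimers α4β1γ1 and α4β2γ1 were bounded at 434 ± 32.7 in Col6a1-/- lungs and 499 ± 19.9 in wildtype lungs. By longest transcript they had the highest bound of all, at 867 ± 65.3 in Col6a1-/- lungs and 997 ± 39.6 in wildtype lungs. The alpha 2 trimers α2β1γ1 and α2β2γ1 were bounded at 209 ± 22.5 in Col6a1-/- lungs and 261 ± 19.98 in wildtype lungs. The alpha 1 trimers α1β1γ1 and α1β2γ1 were bounded by Lama1 at 6.14 ± 1.04 in Col6a1-/- lungs and 14.9 ± 4.51 in wildtype lungs. The log2 ratios of these bounds, Col6a1-/- over wildtype, depended on the trend on length and GC. With it removed they were -0.04 for the alpha 4 trimers, against -0.20 as deposited, -0.15 against -0.33 for the alpha 2 trimers, and -0.18 against -0.42 for the alpha 3 trimers. The bounds of α5β1γ1 and α5β2γ1 then stood at 0.0089 and 0.036, against -0.25 and -0.20, and those of the alpha 1 trimers at -1.04, against -1.27.

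The lower estimates were read again with the male share as a covariate, in the mixed-sex pools alone, and with the trend on length and GC removed. With the male share as a covariate all 9 estimates stayed lower, with a median of -0.37 and a range from -1.60 for Lama1 to -0.21 for Lamb2, and limma adjusted p of 0.547 to 0.769. Male share largely followed genotype. Among wildtype pools it was 51.5% in replicate 3, against 0.347% and 3.35% in replicates 1 and 2. The covariate fit therefore leans on that pool and cannot separate sex from genotype. In the mixed-sex pools alone, all 9 genes were lower in both Col6a1-/- replicates 1 and 3 than in wildtype replicate 3, as were 37.5% of all tested genes. For the 7 genes without overlap between genotypes this outcome was fixed in advance. For Lamb2 and Lamb3 the overlap had come from Col6a1-/- replicate 2, which is left out here. The comparison rests on 1 wildtype library, the one with the highest mean level of the 9 genes, so it cannot separate sex from genotype. After the trend on length and GC was removed, 7 of the 9 were lower, against 50.6% of all genes, and the median was -0.14. In that fit 3 of the 9 (Lama1, Lama3 and Lamb1) had a lower estimate with an unadjusted limma p under 0.05, against 10.1% of all genes. Lama1 kept a log2 fold change of -0.97 there (limma adjusted p 0.106), Lama3 had -0.18, Lamb1 -0.14, Lamc1 -0.16, Lama2 -0.15, Lamb3 -0.07 and Lama4 -0.04, while Lama5 and Lamb2 stood above 0 at 0.04 and 0.09. The trend that was removed amounted to -0.15 to -0.25 on the log2 scale at the 9 genes, and its part in their lower levels was not tested further.

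**Figure D4:**
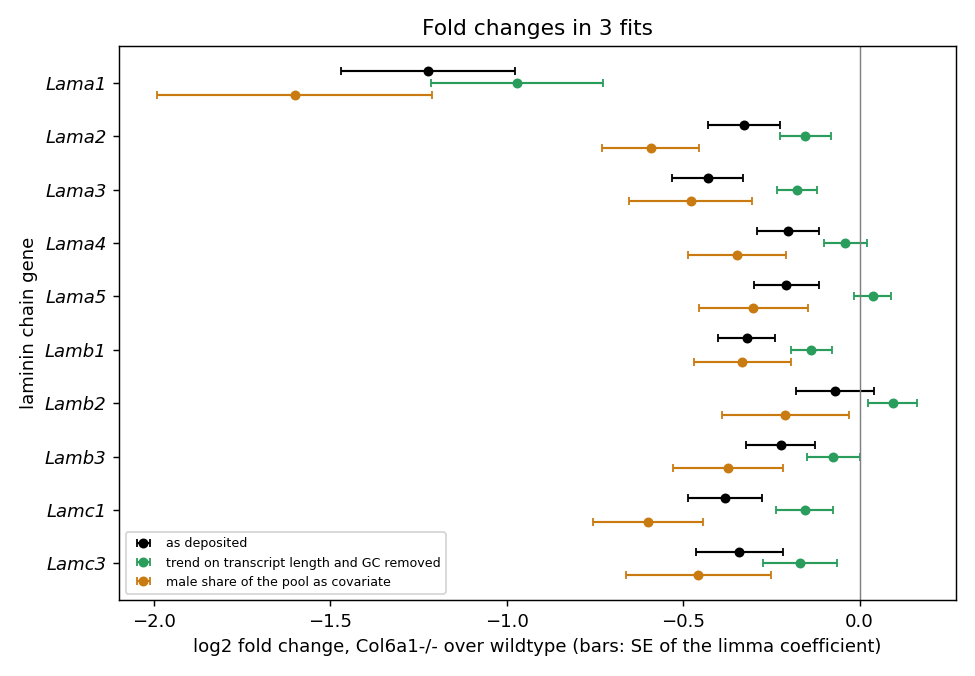
Log2 fold change of each laminin chain gene, Col6a1-/- over wildtype, with the SE of the limma coefficient, in the values as deposited, after removal of the trend on length and GC, and with the male share as a covariate. Lama1 lay at -1.22, -0.97 and -1.60, while Lama5 and Lamb2 turned to 0.04 and 0.09 once the trend was removed.

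The 9 genes varied together over the 6 libraries. Pearson's r between pairs of their log2 levels ran from 0.231 to 0.979 with a median of 0.863 over 36 pairs. Lamb2 had the lowest values, from 0.231 to 0.817. These libraries share the genotype difference and the length trend. The 5 genes closest to the mean level of the 9, out of 12991 genes averaging 100 or more normalized counts, were Ywhag, Col18a1, Sorcs2, Fbxo42 and Ipo9, with r of 0.997, 0.995, 0.995, 0.995 and 0.994 over 6 libraries. They were selected as the highest r among those 12991 genes over only 6 libraries, so high values came with the selection. Col18a1 encodes collagen XVIII of basement membranes, Ywhag a 14-3-3 protein, Sorcs2 a receptor of the sortilin family, Fbxo42 an F-box protein and Ipo9 a nuclear import receptor. Their longest transcripts were 3520 bases for Ywhag and 5595 to 6247 bases for the other 4.

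Of 20 partner genes of laminins (linkers, proteoglycans, collagen IV, receptors and netrins), 16 had lower and 4 higher estimates in Col6a1-/- lungs. Over all genes tested, 48.3% had a lower estimate. The median log2 fold change of the 20 was -0.27. None passed the limma threshold. A total of 6 passed at a lower level in the authors' deposited table, against 3.18% of the genes with an adjusted p there. At an unadjusted limma p under 0.05, 11 were lower and 1 higher, against 10.6% of all genes in the lower direction. The 4 with the smallest p were Itga6 and Itga7, alpha subunits of laminin-binding integrins, Hspg2, the proteoglycan perlecan, and Ntn1, the laminin-related netrin 1. Itga6 averaged 5373 ± 455 normalized counts in Col6a1-/- lungs and 7407 ± 386 in wildtype lungs (SD, n = 3 each), a log2 fold change of -0.47 (limma adjusted p 0.0815). Itga7, Hspg2 and Ntn1 stood at 71.5%, 75.0% and 80.2% of wildtype (limma adjusted p 0.0950, 0.101 and 0.103). Itgb1, the common beta subunit of these integrins, stood at 102% of wildtype and Dag1, dystroglycan, at 82.7% (limma adjusted p 0.863 and 0.166). With the trend on length and GC removed, the median of the 20 was -0.13, with 15 lower and 5 higher estimates. Of these, 6 and 1 had an unadjusted limma p under 0.05, where 10.1% of all genes did so in the lower direction. Itga6 then had a log2 fold change of -0.39 (limma adjusted p 0.0535), Itga7 -0.39, Hspg2 -0.17, Ntn1 -0.14 and Dag1 -0.10. With the male share as a covariate the median was -0.35, with 17 lower and 3 higher, and Itga6 had -0.66, Itga7 -0.20 and Itgb1, turned below 0, -0.20.

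Marker genes of the cell types looked at did not all move alike. The summed normalized counts of 5 endothelial markers ran from 101887 to 110138 in Col6a1-/- libraries and from 118863 to 129151 in wildtype libraries, without overlap, and all 5 had lower estimates. The 4 pericyte markers summed to 16790 to 18721 in Col6a1-/- libraries and 19891 to 21971 in wildtype libraries, with all 4 lower. The 5 fibroblast and 5 smooth muscle markers all had lower estimates, with overlapping sums (101885 to 110860 against 107581 to 129813, and 23225 to 24063 against 22463 to 30576). The 5 alveolar type 1 markers split into 3 lower and 2 higher and the 5 alveolar type 2 markers into 4 lower and 1 higher, both with overlapping sums. Airway markers had higher estimates in Col6a1-/- libraries. The 3 club cell markers were all higher and summed to 715915 to 903400 in Col6a1-/- libraries and 545884 to 689745 in wildtype libraries, without overlap. The 3 ciliated cell markers were all higher with overlapping sums (4911 to 5472 against 4445 to 5090), and the 3 basal cell markers, of which 2 were tested and higher, summed to 54.0 to 71.1 against 30.7 to 40.5. The 3 macrophage markers were all lower, at 2343 to 2604 in Col6a1-/- libraries and 2736 to 3241 in wildtype libraries, without overlap. The 3 mesothelial markers, 3 of 4 Schwann cell markers and both tested skeletal muscle markers were higher. Markers of fat (4 of 4), heart muscle (4 of 4) and red cells (3 of 3) had higher estimates, with sums of 3723 to 5299, 13916 to 15053 and 45883 to 78084 in Col6a1-/- libraries, against 1035 to 2781, 9838 to 13242 and 31071 to 34769 in wildtype libraries. No marker passed the limma threshold, only the skeletal muscle marker Myh4 was at 0 in all 6 libraries, and the part of these cell types in the laminin levels was not tested.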

How the data were processed

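Lung RNA was sequenced in 3 Col6a1-/- and 3 wildtype libraries, each from a separate pool of 2 animals, per the labels' protocols, so p-values measure the spread between pools. Per the submitters' processing notes the tools were DESeq2 1.16.1, R 3.4.1, featureCounts of Subread 1.5.0p3, STAR 2.5.2b and Trimmomatic 0.36, and the build was GRCm38.p5; their settings, strand included, are not known here. The authors deposited a signal in normalized counts. In its header the word New follows the name of wildtype replicate 2, and what it means is unknown. Values in every library (100%, to within 1e-06) came out as whole reads once multiplied by that library's size factor (0.911 to 1.25). In Col6a1-/- replicate 3 the factor was 1.0003, so its step alone cannot test this. The authors' deposited comparison held a mean and a test statistic (each a score), a log2 fold change, a p-value and its adjusted p-value.

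Genes were tested, two-sided, by limma-trend on log2 values of the normalized count plus 1 (R 4.3.3, limma 3.58.1). Tested were the 16879 genes with at least 10 normalized counts in at least 3 libraries, Benjamini-Hochberg adjusted, threshold 0.05; the procedure was tested on simulated data. Fold changes are on that scale, which understates those of low genes. Alternatives were other pseudocounts, filters and scalings, robust moderation, library quality weights, edgeR 4.0.16 (13 genes called over all) and DESeq2 1.42.0 on recovered reads, a replicate block, the male share (Ddx3y, Eif2s3y, Kdm5d and Uty) as covariate, removal of each library's trend on transcript length and GC (natural splines, 5 degrees of freedom each), and each library left out. The comparison of mixed-sex pools was added after seeing the data. Shares and ratios were compared by exact permutation over libraries. Positions and lengths came from GENCODE M21 (GRCm38). Antisense genes share 3.86% of the merged exon bases of Lama2, 1.83% of Lama3 and 6.27% of Lamc3.

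The genes, gene lists and tests were chosen with earlier results of these data known. Named by rule were the 9 chain genes, Lamc3, Col6a1, the called or else the 4 leading partner genes, and the 5 genes most like the mean of the 9. Itgb1 and Dag1 were named after their values were seen. One further item of that rule is not reported here.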

Additional observations from a re-analysis of the deposited data

How the results depend on the processing

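No laminin chain gene passed the limma threshold in the values as deposited. Passing were 6 with library quality weights and 4 with DESeq2 on recovered reads, and 0 to 2 when a library was left out; the 2, Lama1 and Lama3, passed without wildtype replicate 3 (limma adjusted p 0.0367 and 0.0391), where 1383 genes passed over all, against 11. Quality weights passed 3225 genes over all, DESeq2 742, no filter 93, the removed trend 81, robust moderation 30, median centring 26, the male share covariate 0 (1306 at an unadjusted p under 0.05), edgeR 13, and leaving out a library 0 to 1383. The causes were not tested.

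The median log2 fold change of the 9 genes was -0.32, ran from -0.35 to -0.24 when a library was left out, and moved to -0.14 with the trend on length and GC removed. The sign turned for Lama5 (0.037) and Lamb2 (0.094) with the trend removed, for Lamb2 (0.0022) without Col6a1-/- replicate 3 (range -0.18 to 0.0022), and for the bounds of α5β1γ1 (0.0089) and α5β2γ1 (0.036) with the trend removed. The difference in the Lama2 share turned to 0.18 percentage points without wildtype replicate 3, with a range of -0.59 to 0.18. The ratio to Lamc1 turned to 0.00068 for Lama3 without wildtype replicate 1 (range -0.13 to 0.00068), and to -0.0013 and -0.00090 for Lamb1 without Col6a1-/- replicate 3 and without wildtype replicate 3 (range -0.0013 to 0.10). The Lamb2 share differed by 1.98 to 4.94 points when a library was left out.

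With the replicate block no chain gene passed, and 7 genes did over all (Lama1 adjusted p 0.0651). The shared numbers do not pair the pools: same-numbered pools had deviations correlated at -0.136, 0.106 and -0.0059. Depth limits Lama1 most, with 51 to 183 reads a library.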
